A study of Zea mays with 6 samples.

Results

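The genes described here are 5 members of the maize circadian clock, chosen by gene identifier among the 39283 genes of the expression table: CCA1 (GRMZM2G474769), LHY (GRMZM2G014902), TOC1 (GRMZM2G020081) and a pair of GIGANTEA genes, GIGANTEA1 or gigz1a (GRMZM2G107101) and gigz1b (GRMZM5G844173). The RNA came from the aerial portions of 7 day-old greenhouse-grown seedlings of the inbred line B73. The cut shoots were kept for 30 min either in 1% DMSO, the control, or in the auxin indole-3-acetic acid (IAA) with 1% DMSO, with 3 replicates of 3 plants per treatment. The labels give the IAA dose as 100 mM, whereas the methods of the study give it in μM. All shoots were thus detached and held in DMSO, and no shoot sampled without incubation was part of the comparison.

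Expression was given as FPKM, the number of sequenced fragments scaled to transcript length and to the size of the library, with 1 value per gene and treatment pooled over the replicates. No spread between replicates can be had from such values, so every difference below is a description of 2 pooled values and none was tested here. The number of reads per library is likewise unknown. The tissue check fitted a green shoot: of 8 identifiers listed as C4 or Rubisco genes, 7 averaged 1 FPKM or more, with the Rubisco small subunit gene rbcS (GRMZM2G113033) at 1829 FPKM in the DMSO control and 1840 after IAA. The KNOX meristem genes were low, with kn1 (GRMZM2G017087) at 4.50 FPKM in the control and 3.70 after IAA. In the 22506 genes that averaged 1 FPKM or more over both treatments and were at 0 in neither, the median log2 ratio of IAA over DMSO was -0.04 and the central 90% of genes lay between -0.59 and 0.53.

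The plant clock is a set of transcription regulators that repress each other in turn over the day. CCA1 and LHY are related MYB-type transcription factors whose transcripts peak around dawn and which repress evening genes, TOC1 among them. TOC1 is a pseudo-response regulator that represses the morning genes in return, and GIGANTEA is a large plant-specific protein that links the clock to photoperiodic flowering and to the turnover of clock proteins. These roles were worked out mainly in Arabidopsis. In maize, transcripts of CCA1 and LHY are known to be highest in the morning, and those of TOC1 and GIGANTEA later in the day. The levels of these 5 genes therefore bear on the phase at which the shoots were collected. Their ratios between the treatments bear on any offset in phase. The lowest and highest daily level of each gene is not known here, so the levels alone do not fix a phase. The time of day of the collection is not given in the sources used here, and with a single time point the values give the order of the genes at that moment, not their cycle.

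The evening genes were all above the morning genes, in the control as well as after IAA. FPKM is scaled to transcript length, so levels can be set side by side between genes. Genes can differ in the level they reach at their own peak, so this order does not give a time of day. The order from high to low was GIGANTEA1, gigz1b, TOC1, CCA1 and LHY in both treatments. With pooled values it cannot be said which neighbours in this order differ beyond the spread of the replicates. The 3 evening genes summed to 157.2 FPKM in the control and 146.9 FPKM after IAA, and the 2 morning genes to 3.88 and 3.29 FPKM. The ratio of the evening sum to the morning sum was 40.5 in the control and 44.7 after IAA. GIGANTEA1 makes up most of the evening sum. With TOC1 alone set against CCA1 alone, the ratio of the FPKM levels was 1.95 in the control and 2.08 after IAA, so the distance between the classes rests largely on the GIGANTEA pair.

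**Figure D1:**
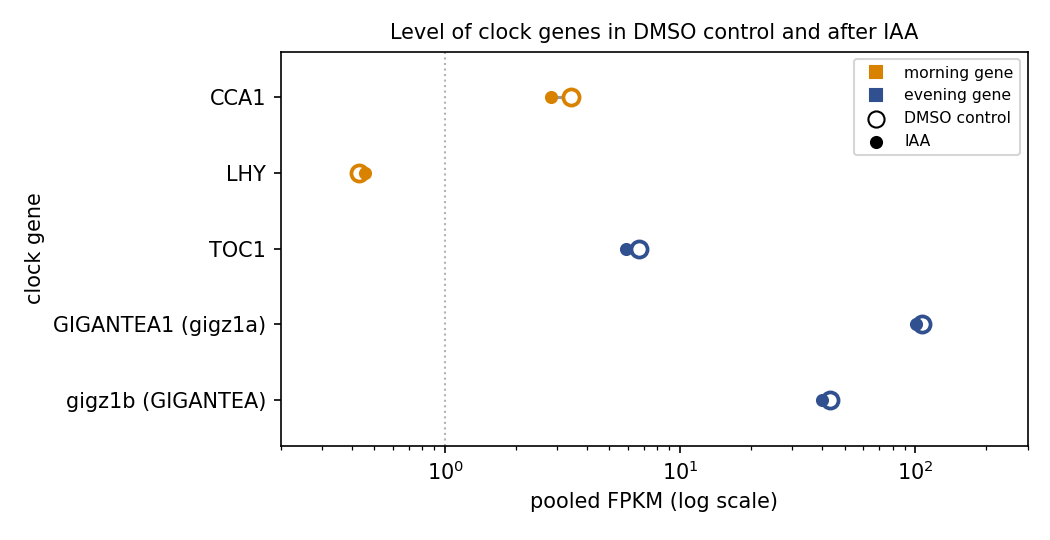
Pooled FPKM (log scale) of the 5 clock genes, with open circles for the DMSO control and filled circles for IAA; orange marks morning and blue evening genes, the dotted line is at 1 FPKM, and no error bars are drawn because each point is 1 pooled value. Both circles of each gene lie close together, from 0.431 and 0.455 FPKM for LHY to 107.1 and 100.8 FPKM for GIGANTEA1, and the evening genes lie to the right of the morning genes.

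Among the morning genes, CCA1 was the higher. CCA1 lies on chromosome 10 from 78333991 to 78337257 (B73v3, as all coordinates here). Its level was 3.45 FPKM in the DMSO control and 2.83 FPKM after IAA, which placed it above 41.2% of the genes with a value above 0 in the control and above 39.1% after IAA. The IAA level was 82.1% of the control level, a log2 ratio of -0.28. This was the largest difference among the 5 genes, yet 32.6% of the 22506 genes differed by as much or more in either direction. In the 6374 genes at 0.5 to 2 times the level of CCA1, 38.9% did so.

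A further identifier bears on the CCA1 value. The RefSeq gene table of the later Zm-B73-REFERENCE-NAM-5.0 assembly lists GRMZM2G474769 and GRMZM2G175265 as names of the same gene. In B73v3 the 2 are separate loci on chromosome 10, and GRMZM2G175265 runs from 78356797 to 78358456, 19539 bp beyond the end of GRMZM2G474769. GRMZM2G175265 had 4.42 FPKM in the control and 3.66 FPKM after IAA, a log2 ratio of -0.27, next to -0.28 for GRMZM2G474769. Its level was 1.28 times that of GRMZM2G474769 in the control and 1.29 times after IAA. The log2 ratios of the pair were thus nearly the same, while the gap between their levels was larger than the difference between the treatments. Neither value would move CCA1 above TOC1 in the order. If both are pieces of a single transcript, the FPKM of each is scaled to the length of its own piece.

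LHY was the lowest of the 5 genes. LHY lies on chromosome 4 from 32527798 to 32560791, a locus of 32994 bp, against 3267 bp for CCA1. It was listed at 0.431 FPKM in the DMSO control and 0.455 FPKM after IAA, under the minimum mean of 1 FPKM used for the counts below. Of the 5 genes it alone was listed higher after IAA, by a log2 ratio of 0.08, which is 105.5% of the control level. At this level such a difference is small: of the 3201 genes at 0.5 to 2 times its level, 89.6% differed by as much or more, and their central 90% ran from -1.40 to 1.27. CCA1 stood at 8.003 times the level of LHY in the control and at 6.23 times after IAA.

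TOC1 was the lowest of the evening genes. TOC1 lies on chromosome 4 from 140726569 to 140729617. It had 6.71 FPKM in the DMSO control and 5.90 FPKM after IAA, a level near the middle of the table, above 53.0% and 51.3% of the genes with a value above 0. The IAA level was 87.9% of the control level, a log2 ratio of -0.19. In the 8334 genes at 0.5 to 2 times its level, 47.7% differed by as much or more.

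The GIGANTEA genes were the most abundant. GIGANTEA1 lies on chromosome 8 from 21104080 to 21112365 and had 107.1 FPKM in the control and 100.8 FPKM after IAA, above 95.4% and 95.3% of the genes with a value above 0. Its copy gigz1b lies on chromosome 3 from 9306265 to 9317285 and had 43.4 FPKM in the control and 40.2 FPKM after IAA, above 88.2% and 87.8% of those genes. The log2 ratios were -0.09 for GIGANTEA1 and -0.11 for gigz1b, so the copies were 94.1% and 92.7% of their control levels. GIGANTEA1 held 71.2% of the summed FPKM of the pair in the control and 71.5% after IAA. The balance between the copies therefore differed by little between the treatments. The likeness of the copies in sequence was not measured here. Reads could have been split between the copies by the mapping, and the share of each copy is uncertain to that extent.

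No clock gene passed a difference of 1.5-fold in either direction. Of the 5 genes, 4 passed the minimum mean of 1 FPKM, and LHY stays within 1.5-fold as well. Across the 22506 genes, 4.1% were higher after IAA by more than 1.5-fold and 5.18% were lower by more than 1.5-fold, so a count of 0 among so few genes is near what these shares give. The 4 clock genes past the minimum were all listed lower after IAA, with a median log2 ratio of -0.15. Of all genes, 55.5% were listed lower, with a median of -0.04. Among genes at 0.5 to 2 times the level of each, 44.1% had a lower ratio than GIGANTEA1 and 39.8% than gigz1b. The shares were 26.7% for TOC1 and 21.1% for CCA1. With the median of all genes set to 0, the log2 ratios were -0.25 for CCA1, -0.15 for TOC1, -0.05 for GIGANTEA1, -0.07 for gigz1b and 0.12 for LHY. All 5 ratios lay inside the central 90% of genes at 0.5 to 2 times their own level, which ran from -0.71 to 0.63 for CCA1 and from -0.57 to 0.44 for GIGANTEA1.

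**Figure D2:**
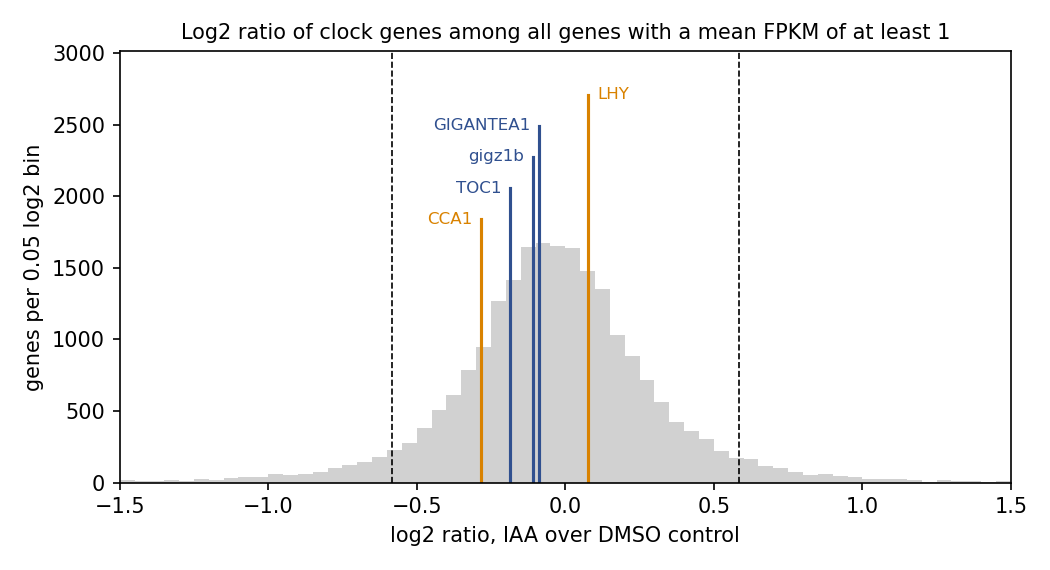
Log2 ratio of IAA over DMSO for the 5 clock genes (vertical lines, orange for morning and blue for evening genes, their heights staggered only for the labels) over the number of genes per 0.05 log2 bin (grey bars) for the 22506 genes that average 1 FPKM or more; LHY is under that mean, and 172 genes lie beyond the axis. All lines fall between the dashed limits of 1.5-fold, from -0.28 for CCA1 to 0.08 for LHY.

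Morning and evening genes showed no shared shift in opposite directions. The mean log2 ratio was -0.13 over the 3 evening genes and -0.10 over the 2 morning genes, a difference of -0.02. The morning mean joins a gene listed lower and a gene listed higher, and its sign depends on which of them is kept: without LHY the difference was 0.16 and without CCA1 it was -0.20. On summed FPKM, in which LHY has little weight, the difference was 0.14. These values therefore give no stable sign for a shift of one class against the other.

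Of other core clock genes, the name tables identify by symbol PRR59 (GRMZM2G135446), a pseudo-response regulator of the same family as TOC1. PRR59 had 15.1 FPKM in the control and 16.6 FPKM after IAA, a log2 ratio of 0.14. It lay between TOC1 and gigz1b in level and, unlike TOC1, was listed higher after IAA. All 6 core clock genes listed here, the 5 members and PRR59, stayed within 1.5-fold. Clock genes without a matching symbol could not be found this way and were not looked at.

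Light sets the clock through photoreceptors, and the symbols of 8 identifiers mark photoreceptors or the PIF transcription factors that phytochromes destabilise. All 8 averaged 1 FPKM or more. The 5 phytochrome identifiers had log2 ratios from -0.17 to 0.05. PHYB (GRMZM2G124532), a red light receptor, had 11.6 FPKM in the control and 10.3 FPKM after IAA, and its copy PhyB2 (GRMZM2G092174) had 3.19 and 3.08 FPKM. PHYA1 or phyA2 (GRMZM2G181028), a far-red light receptor, had 6.17 and 6.39 FPKM. The blue light receptor gene nph1 or phot1 (GRMZM2G001457), which acts in phototropism, was the most abundant with 40.9 and 39.9 FPKM. PHYC stands under 2 identifiers, GRMZM2G129889 with 3.35 FPKM in both treatments and GRMZM2G129913 with 2.27 and 2.07 FPKM. The exception was PIF4 (GRMZM5G865967), with 3.87 FPKM in the control and 6.31 FPKM after IAA, which is 1.63-fold. PIF5 (GRMZM2G165042) had 1.09 and 1.24 FPKM. The count was thus 1 of 8 light input genes higher by more than 1.5-fold and 0 lower, with a median log2 ratio of -0.02, beside 4.1% and 5.18% of all genes. With 1 FPKM added to both values PIF4 no longer passed 1.5-fold.

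A list of possible clock output genes was taken by CONSTANS-type, ZCN and chlorophyll a/b binding protein symbols. A symbol does not show that a gene is under the control of the clock, and this was not tested. The list held 31 identifiers, of which 14 averaged 1 FPKM or more. Of these 14, 2 were higher after IAA by more than 1.5-fold and 0 were lower, beside 4.1% and 5.18% of all genes, and the median log2 ratio was -0.03. The 2 genes lay near the limit, at 1.59-fold and 1.57-fold. The flowering time gene conz1 (GRMZM2G405368), a CONSTANS relative, had 11.1 FPKM in the control and 10.3 FPKM after IAA, a log2 ratio of -0.10. COL10 (GRMZM2G012717) was one of the 2, with 21.8 FPKM in the control and 34.6 FPKM after IAA, 1.59-fold.

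The chlorophyll a/b binding proteins, which collect light for the photosystems, gave 8 identifiers with control levels from 146 to 3809 FPKM. They were split, with 4 listed higher and 4 lower after IAA. Towards the high side, lhcb6 (GRMZM2G092427) had 719.5 FPKM in the control and 1127 FPKM after IAA, 1.57-fold, and cab-m1 (GRMZM2G351977) had 841 and 1238 FPKM, 1.47-fold. On the low side, CAB-M9 or lhcb3 (GRMZM2G155216) had 912.1 and 758.3 FPKM, a log2 ratio of -0.27. The most abundant of them, CAB1 (AC207722.2_FG009), had 3809 and 3929 FPKM, and Cab-m7 (GRMZM2G402936) had 1211 and 1066 FPKM. Among the C4 and Rubisco genes used as leaf markers, 4 of the 7 past the minimum were higher by more than 1.5-fold, beside 4.1% of all genes. Of these 4, pepc (GRMZM2G083841) had 804.6 FPKM in the control and 1258 FPKM after IAA. It lay near the limit at 1.56-fold, as did Ppdk1 (GRMZM2G306345) at 1.57-fold and Rca (GRMZM2G162200) at 1.51-fold. The last, PPDK2 (GRMZM2G097457), was far less abundant, with 4.26 FPKM in the control and 8.52 FPKM after IAA. The Rubisco small subunit identifiers GRMZM2G098520 and GRMZM2G113033 were both at 1.01-fold. At a 2-fold limit 1 of the 7 was higher and 0 were lower, beside 0.938% and 1.4% of all genes. The leaf markers were not counted under the other settings. All 7 of these leaf markers were listed higher after IAA, with a median log2 ratio of 0.59, and all 5 meristem markers were listed lower, with a median of -0.10. The part of these marker differences in the values of the clock and output genes was not tested. Some leaf marker genes and lhcb6 therefore differed by more than 1.5-fold between the same pooled samples in which the clock genes differed by less. The pooled FPKM values alone do not show how these differences compare with the spread of the replicates.

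**Figure D3:**
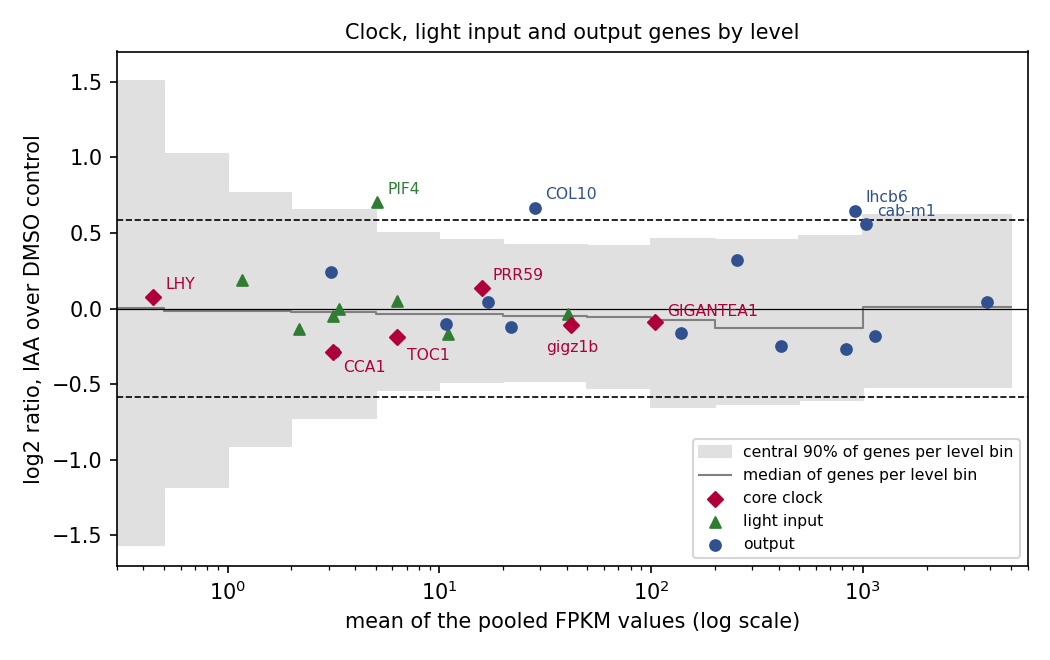
Log2 ratio of IAA over DMSO against the mean of both pooled FPKM values (log scale) for core clock genes (red diamonds), light input genes (green triangles) and output genes (blue circles) that average 1 FPKM or more, plus LHY; grey marks the central 90% of all genes in each level bin, the grey line their median, and the dashed lines 1.5-fold. The core clock genes lie within the grey area, and PIF4, COL10 and lhcb6 lie above the upper dashed line at 0.70, 0.67 and 0.65.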

How the data were processed

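Reads were quality trimmed by the authors (trimmomatic), aligned to the B73v3 genome (TopHat2 2.1.1) and compared between treatments (Cuffdiff 2.2.1), with versions as in the submitters' processing notes. The annotation and strand setting of cuffdiff are not given in the sources used here. The deposited values are FPKM pooled by cuffdiff over the 3 replicates of a treatment. Columns with the authors' log2 fold change, test statistic, p-value, q-value and call were not used. Log2 ratios of the pooled FPKM values were computed without a pseudocount for genes above 0 in both treatments, and counts used a mean FPKM of at least 1. Low values showed no steps of whole reads (the commonest ratio held 0.676% of 1183 genes under a mean of 0.05 FPKM), so depth and its limits are unknown.

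The members and lists were chosen with earlier results of these data known. The names CCA1, LHY and TOC1 come with the choice of members and were not among the symbols found for these identifiers. Which of the morning genes is CCA1 and which is LHY was not checked here. Other names were matched by symbol in the deposited table or in the RefSeq gene table of Zm-B73-REFERENCE-NAM-5.0, which holds 18995 of the 39283 identifiers and all 5 members and was used for names only. In lists of over 12 genes, the 4 most abundant and the 2 with the largest change each way were named by rule, and conz1, ZCN25, ZCN8 and GRMZM2G175265 were named as well after their values were seen. No gene was named for a likeness to a clock gene, since 2 values cannot rank likeness. Deposited locus starts were taken to count from 0, so 1 was added to each. No member overlaps another gene's locus. Promoter and protein sequences were not used here. Alternatives were pseudocounts of 0.1 and 1 FPKM, minimum means of 5 FPKM or none, a 2-fold limit, centring, scaling of the sums and leaving out each member. The counting step was tested on simulated data. Tools were matplotlib 3.10.9, pandas 2.3.3, numpy 2.4.6 and Python 3.11.15.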

Additional observations from a re-analysis of the deposited data

How the results depend on the processing

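No paired analysis was possible because FPKM values in the table analysed here are already pooled over replicates. Limma fits, the replicate block and leaving out replicates were therefore not run. A log2 value was taken as moved where it differed by 0.05 or more. The 5 clock genes kept their direction with pseudocounts, centring and scaling. With both FPKM sums set to 1000000, the log2 ratios were -0.22 for CCA1, 0.14 for LHY, -0.12 for TOC1, -0.0232 for GIGANTEA1 and -0.0450 for gigz1b. With 1 FPKM added they were -0.21 for CCA1 and 0.0236 for LHY. The difference between evening and morning genes, -0.02, was -0.20 without CCA1, 0.16 without LHY, 0.0049 without TOC1 and 0.14 on summed FPKM. None of the listed core clock genes passed the fold limit under any setting that was run. For light input genes the count higher after IAA, 1, was 0 at 2-fold and 0 with 1 FPKM added. For output genes the counts of 2 higher and 0 lower were 5 and 2 with no minimum level, 0 were higher at 2-fold, and 3 were higher with the median of all genes set to 0. Over all genes, the shares higher and lower were 8.99% and 9.63% with no minimum level, 0.938% and 1.4% at 2-fold, and 2.39% and 3.45% with 1 FPKM added.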

Other observations

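The ZCN genes, relatives of the flowering signal FT, were mostly low in these shoots. Of 17 identifiers with a ZCN symbol, 4 were listed at 0 in both treatments and 2 averaged 1 FPKM or more. These were ZCN3 (GRMZM2G338454), with 3.49 FPKM in the DMSO control and 2.86 FPKM after IAA, and ZCN25 (GRMZM2G021560), with 2.82 and 3.33 FPKM. ZCN8 (GRMZM2G179264), the maize florigen that acts downstream of the photoperiod pathway, had 0.213 and 0.2001 FPKM, below LHY. None of these differences was tested here.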
